A study of Mus musculus with 8 samples.

Results

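The PAF1 complex is described here through the genes of its 6 subunits, Paf1, Ctr9, Leo1, Cdc73, Rtf1 and Wdr61, which were taken by gene symbol from 53392 genes. They hold 39 of the 136202 transcripts in the files. RNA was sequenced from flash-frozen cortex of P0 (newborn, postnatal day 0) mice, in 4 libraries from mice with the R342X mutation of Phf6, an X-linked gene, and 4 from wild-type mice. All mice were of the FVB/N background. R342X replaces an arginine codon of the PHF6 protein by a stop codon, and all libraries were made from TRIzol-extracted RNA with NEBNext dual adapters. The labels name no animal, litter or sex, so p-values cover only the spread among these libraries, and that spread may be technical.

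The PAF1 complex travels with RNA polymerase II along transcribed genes. It helps the polymerase to elongate and to leave promoter-proximal pausing, and it recruits enzymes that ubiquitylate histone H2B and methylate histone H3. PHF6 binds the complex, and in the developing mouse cortex both have been linked to the migration of new neurons.

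Estimated depth was 30469745 to 39453169 reads in the mutant libraries and 48841467 to 74266937 reads in the wild-type libraries, so no mutant library was as deep as any wild-type one. Phf6 was lower in all 4 mutant libraries, at 42.2 ± 1.93 CPM in mutant cortex and 79.0 ± 8.87 CPM in wild-type cortex (SD, n = 4 each), where CPM is the read count scaled to a fixed library total with TMM factors. Its log2 fold change was -0.90 ± 0.08 (SE, adjusted p = 0.00226 by edgeR), with an exact two-sided permutation p of 0.0286, the smallest that 70 assignments can give. It was not called by limma on log2(TPM + 0.5), with an adjusted p of 0.0639. The libraries also fell into a pair of sets that the labels do not name, on a first principal component with 35.3% of the variance. Mutant replicates 1 to 3 and wild-type replicate 1 formed set 1, and mutant replicate 4 and wild-type replicates 2 to 4 formed set 2. Retained-intron transcripts took 3.67% to 3.87% of reads in set 1 and 4.05% to 4.22% in set 2. Markers of cortical excitatory neurons summed to 922 to 1009 TPM (a level scaled by transcript length to a fixed library total) in mutant cortex and 1042 to 1123 TPM in wild-type cortex, and those of microglia to 70.2 to 81.4 TPM in mutant cortex and 60.5 to 69.2 TPM in wild-type cortex. The sums of all other marker lists overlapped between the genotypes, and no marker of any list was called. Among these other lists, progenitors and glia were separate between the library sets. Those of progenitors summed to 396 to 414 TPM in set 2 and 343 to 379 TPM in set 1, and those of glia to 211 to 268 TPM in set 2 and 275 to 298 TPM in set 1. Markers of choroid plexus summed to 941 to 1312 TPM in mutant cortex and 807 to 1204 TPM in wild-type cortex. Those of meninges summed to 133 to 197 TPM in mutant cortex and 122 to 153 TPM in wild-type cortex. Those of red blood cells summed to 4141 to 8056 TPM in mutant cortex and 2431 to 10446 TPM in wild-type cortex. For comparison, 6.15% of single genes tested were separate between the genotypes in CPM and 33.3% between the library sets. The part of these markers in the results below was not tested. All 4 markers of hindbrain and spinal cord were under 1 TPM in every library.

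Much of the measured level of Paf1 and Cdc73 lay in transcripts that are not annotated as protein coding. The most abundant of these in Paf1 and the 2 most abundant in Cdc73 are shorter than the main coding transcript of their gene and have few bases outside it. Their sequences are shown because these bases, in capitals, are absent from the main coding transcript and help to separate short transcripts from the messenger RNA. They are read 5′ to 3′ on the transcript strand from the GENCODE M21 transcripts (GRCm38). The lower-case letters are the adjoining 40 bases, shared with the main coding transcript.
Paf1 ENSMUST00000146913.1: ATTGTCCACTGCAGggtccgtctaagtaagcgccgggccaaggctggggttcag
Cdc73 ENSMUST00000212510.1: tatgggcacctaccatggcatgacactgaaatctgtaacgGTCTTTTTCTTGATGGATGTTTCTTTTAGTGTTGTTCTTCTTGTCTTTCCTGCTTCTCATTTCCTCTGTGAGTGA
Cdc73 ENSMUST00000162638.1: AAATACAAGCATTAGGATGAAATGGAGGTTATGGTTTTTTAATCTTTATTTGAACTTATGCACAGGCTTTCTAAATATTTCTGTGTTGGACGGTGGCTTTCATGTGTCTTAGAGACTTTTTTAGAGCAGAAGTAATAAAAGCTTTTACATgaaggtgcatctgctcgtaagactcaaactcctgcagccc

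The first is the start of a retained-intron transcript of Paf1. Its 14 bases outside the main coding transcript lie on the plus strand of chromosome 7 at 28398434 to 28398447. Its other 432 bases lie in exons of the main transcript. The Cdc73 transcripts are annotated as processed transcripts on the minus strand of chromosome 1. The 75 bases of ENSMUST00000212510.1 outside the main transcript, at 143656392 to 143656466, are the end of the transcript. The 150 bases of ENSMUST00000162638.1 outside the main transcript, at 143640432 to 143640581, are its start. These 150 bases also lie within ENSMUST00000189597.1, a retained-intron transcript of Cdc73 with 1 exon, at 143639470 to 143642525.

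All 6 subunits were well expressed in newborn cortex, and their levels per length spread widely. Summed over all transcripts, Paf1 was highest, at 115 ± 6.57 TPM in mutant cortex and 110 ± 5.10 TPM in wild-type cortex (SD, n = 4 each here and below), above 92.0% of the genes tested. Rtf1 followed at 71.3 ± 2.65 TPM in mutant cortex and 70.5 ± 1.34 TPM in wild-type cortex. Wdr61 had 47.8 ± 2.50 TPM in mutant cortex and 49.0 ± 2.26 TPM in wild-type cortex, and Ctr9 had 46.7 ± 1.66 TPM in mutant cortex and 45.3 ± 3.54 TPM in wild-type cortex. Leo1 had 37.7 ± 2.64 TPM in mutant cortex and 35.2 ± 2.77 TPM in wild-type cortex. Cdc73 was lowest, at 17.9 ± 1.95 TPM in mutant cortex and 18.3 ± 2.36 TPM in wild-type cortex, above 60.5% of the genes tested. Neighbours in this order kept their places in all 8 libraries with ranges that did not overlap, except Wdr61 and Ctr9, whose ranges overlapped and whose order held in 7 of 8 libraries.

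The order changed when only protein-coding transcripts were summed. Rtf1 was then the highest in all 8 libraries, at 67.2 ± 1.92 TPM in mutant cortex and 66.7 ± 1.43 TPM in wild-type cortex. Paf1 came second, at 61.2 ± 2.38 TPM in mutant cortex and 57.1 ± 1.70 TPM in wild-type cortex. Wdr61 and Ctr9 again overlapped, with Wdr61 above Ctr9 in 6 of 8 libraries, and Leo1 lay below Ctr9 in every library although their ranges overlapped. Cdc73 had 6.16 ± 0.48 TPM in mutant cortex and 6.19 ± 0.75 TPM in wild-type cortex, the lowest of the 6 in all 8 libraries.

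**Figure D1:**
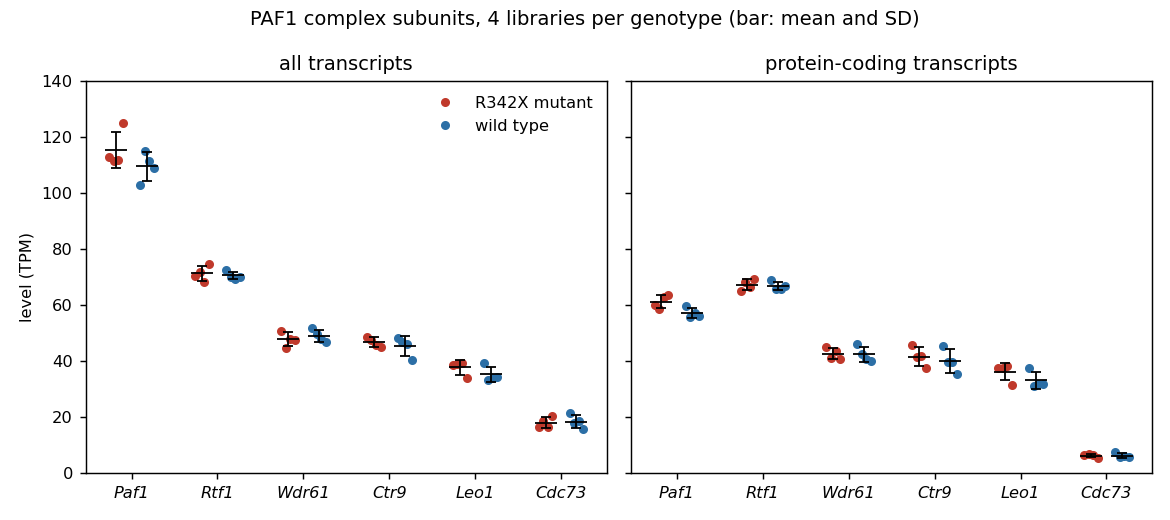
Level of each subunit in TPM (linear axis) over all transcripts (left) and over protein-coding transcripts (right), with 1 point per library, R342X mutant in red left of wild type in blue, and bars for mean and SD (n = 4 each). Paf1 is highest over all transcripts, at 115 TPM in mutant cortex and 110 TPM in wild-type cortex, while Rtf1 is highest over protein-coding transcripts, at 67.2 TPM in mutant cortex and 66.7 TPM in wild-type cortex.

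The gap between both ways of counting came from transcripts without a coding annotation. They held 65.3% ± 5.42 of the TPM of Cdc73 in mutant cortex and 66.0% ± 2.32 in wild-type cortex, but 19.2% ± 3.76 of its estimated reads in mutant cortex and 19.6% ± 1.88 in wild-type cortex. For Paf1 they held 46.9% ± 2.30 of TPM in mutant cortex and 47.7% ± 3.96 in wild-type cortex, against 15.6% ± 1.44 of reads in mutant cortex and 16.3% ± 1.46 in wild-type cortex. A TPM value divides reads by effective length, so a short transcript with few reads weighs more in TPM than in reads. The main coding transcript of Cdc73 is 11586 bases long, with 1596 coding bases, and held 34.4% of the gene's TPM and 80.6% of its reads. The share of ENSMUST00000212510.1, of 1047 bases, was 47.7% of TPM and 8.89% of reads, and that of ENSMUST00000162638.1, of 3134 bases, was 16.7% of TPM and 9.98% of reads.

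The Paf1 transcript ENSMUST00000146913.1 is 446 bases long and had an effective length of 245 bases. It held 32.9% of Paf1 TPM on 7.21% of Paf1 reads. Its level was 37.4, 36.9, 35.9 and 42.6 TPM in the R342X libraries 1 to 4, and 29.0, 40.1, 38.9 and 35.3 TPM in the wild-type ones. The genotypes overlapped, and the log2 fold change was 0.07 ± 0.15 (adjusted p = 0.923 by edgeR), and 0.27 with the library set as a term (adjusted p = 0.762). Salmon assigns shared reads by a model, so the counts of 153 to 411 estimated reads per library behind these values are estimates.

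In the other subunits the share without a coding annotation was smaller. It was 10.9% of TPM in mutant cortex and 13.6% in wild-type cortex for Wdr61, 11.1% in mutant cortex and 11.9% in wild-type cortex for Ctr9, 5.62% in mutant cortex and 5.38% in wild-type cortex for Rtf1, and 4.24% in mutant cortex and 6.05% in wild-type cortex for Leo1. By estimated reads the share was lower than by TPM for Wdr61, Ctr9 and Rtf1. For Leo1 it was higher by reads, at 8.55% in mutant cortex and 11.3% in wild-type cortex. In none of the 6 genes did this share separate the genotypes. Among 11261 genes tested that have both coding and other transcripts, the genotypes were separate in 3.22% by share of TPM and in 3.2% by share of reads. The library sets were separate for 3 of the 6 subunits by share of TPM, against 16.9% of those genes, and for 4 by share of reads, with Ctr9 added, against 18.7%. In each of these cases set 2 was higher. The share of TPM ran from 48.4% to 51.6% in set 2 and from 42.2% to 47.6% in set 1 for Paf1, from 6.05% to 7.20% in set 2 and from 2.95% to 4.44% in set 1 for Leo1, and from 14.0% to 14.8% in set 2 and from 8.35% to 11.6% in set 1 for Wdr61.

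**Figure D2:**
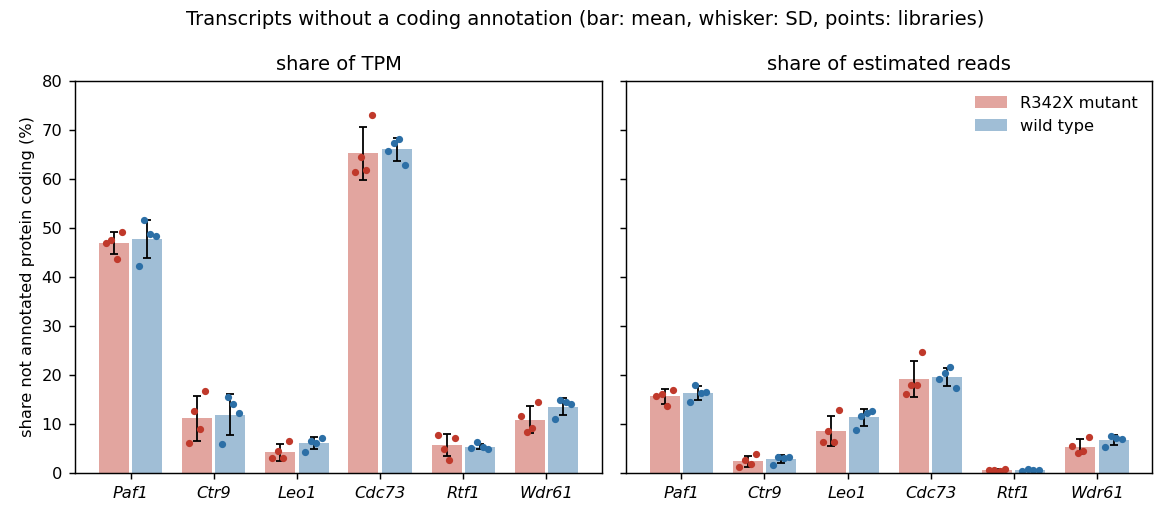
Share of each subunit's TPM (left) and of its estimated reads (right) in transcripts not annotated as protein coding, in percent. Bars are means with SD whiskers and points are libraries, R342X mutant left of wild type (n = 4 each), and Cdc73 stands highest in TPM at 65.3% in mutant cortex and 66.0% in wild-type cortex.

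The comparison of genotypes asks whether the genes for PHF6's partner complex differ in level in cortex that carries the Phf6 mutation. None of the 6 subunits was called at an edgeR adjusted p under 0.05, and none had an unadjusted p under 0.05, where 0.0199% of the 20097 genes tested were called and 13.7% had an unadjusted p under 0.05. The fold estimates were above 0 for 2 subunits and below 0 for 4, with a median log2 fold change of -0.04, against 0.001 over all genes tested. The 95% intervals of the 6 folds together ran from 0.865 to 1.11 times the wild-type level. Of all genes tested, at any level, 21.5% had an interval within the widest of these bounds. That bound was taken from the subunits, so all 6 lie within it by construction. Whether the intervals are narrow for genes of like level was not tested. In bulk tissue, fewer cells of a type and less RNA per cell cannot be told apart. The groups overlapped in CPM for all 6 subunits, while 6.15% of all genes tested did not overlap.

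Paf1 and Ctr9 form the core on which the complex assembles. Paf1 (chromosome 7, 28392951 to 28399388, plus strand) had 69.7, 68.2, 74.8 and 79.2 CPM in the R342X libraries 1 to 4, and 68.5, 72.8, 72.1 and 73.4 CPM in the wild-type ones. Mutant replicate 4 was the highest and mutant replicate 2 the lowest of the 8, so the wild-type libraries lay within the mutant range. Means were 73.0 ± 5.003 CPM in mutant cortex and 71.7 ± 2.19 CPM in wild-type cortex, with an estimated log2 fold change of 0.03 ± 0.06 (SE, adjusted p = 0.846 by edgeR) and an interval from -0.10 to 0.15. Within the library sets the difference was 0.05 in set 1 and 0.12 in set 2. With the library set as a term it was 0.09 ± 0.04 (adjusted p = 0.413 by edgeR), and without mutant replicate 4 it was -0.02. In the authors' deposited table Paf1 had a log2 fold change of 0.10 ± 0.05, a p of 0.00908 and an adjusted p of 0.157. In the authors' deposited table, calls made up 2.78% of the genes with an adjusted p, and 8.9% of genes had a p under 0.05.

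Ctr9 (chromosome 7, 111028951 to 111056377, plus strand) encodes the tetratricopeptide scaffold that holds the other subunits. It had 105, 96.8, 101 and 93.0 CPM in the R342X libraries 1 to 4, and 105, 102, 100.1 and 92.6 CPM in the wild-type ones. Replicate 1 was the highest and replicate 4 the lowest in both genotypes, and the ranges nearly coincided. The log2 fold change was -0.01 ± 0.06 (adjusted p = 0.923 by edgeR), with an interval from -0.14 to 0.11. On log2(TPM + 0.5) the limma estimate was 0.05, of opposite sign. The median difference over all genes of at least 1 TPM was itself 0.06 on log2 TPM and 0.01 on log2 CPM. The edgeR estimate also turned positive without mutant replicate 2, without mutant replicate 4 or without wild-type replicate 1, reaching at most 0.02.

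Leo1 (chromosome 9, 75441524 to 75466432, plus strand) encodes an acidic protein that pairs with PAF1 and contacts chromatin. It had 43.8, 44.4, 46.3 and 41.5 CPM in the R342X libraries 1 to 4, and 45.0, 42.0, 42.5 and 44.5 CPM in the wild-type ones. The highest and the lowest value were both mutant. The log2 fold change was 0.02 ± 0.05 (adjusted p = 0.880 by edgeR), with an interval from -0.10 to 0.13, and it was -0.03 with the library set as a term (adjusted p = 0.858).

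Cdc73 (chromosome 1, 143598800 to 143702893, minus strand) encodes parafibromin, a tumour suppressor in the human parathyroid. It had 44.1, 46.9, 45.8 and 44.3 CPM in the R342X libraries 1 to 4, and 52.3, 47.7, 45.9 and 46.6 CPM in the wild-type ones. Wild-type replicate 1 stood highest, and mutant replicate 2 lay above wild-type replicates 3 and 4. The log2 fold change was -0.09 ± 0.05 (adjusted p = 0.475 by edgeR), with an interval from -0.21 to 0.03. Without wild-type replicate 1 it was -0.04, and on log2(TPM + 0.5) it was -0.02. Within the sets it was -0.20 in set 1, where wild type has 1 library, and -0.08 in set 2, where the mutant has 1 library. With the library set as a term it was -0.14 ± 0.05 (adjusted p = 0.183 by edgeR), where 0.602% of all genes tested were called. The authors' deposited table gave -0.01 for this gene, with an adjusted p of 0.915. The model behind that table is not given, so the sizes of its folds cannot be set against the edgeR estimates.

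Rtf1 (chromosome 2, 119675068 to 119735407, plus strand) encodes the subunit that stimulates ubiquitylation of histone H2B. It had 161.8, 168.9, 170.7 and 180.8 CPM in the R342X libraries 1 to 4, and 170.5, 179.8, 174.8 and 185.3 CPM in the wild-type ones. The 4 libraries of set 2 were above the 4 of set 1 whatever their genotype, a separation found in 33.3% of all genes tested and in no other subunit on this scale. The log2 fold change was -0.06 ± 0.05 (adjusted p = 0.571 by edgeR), with an interval from -0.16 to 0.05. The difference was -0.03 in set 1 and 0.01 in set 2.

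Wdr61 (chromosome 9, 54714735 to 54734519, minus strand) encodes a WD-repeat protein that also serves in the SKI complex, a cofactor of the RNA exosome. It had 26.5, 23.7, 26.4 and 25.0 CPM in the R342X libraries 1 to 4, and 26.9, 27.0, 25.6 and 26.5 CPM in the wild-type ones. Mutant replicates 2 and 4 were the lowest, and mutant replicates 1 and 3 lay within the wild-type range. The log2 fold change was -0.06 ± 0.06 (adjusted p = 0.612 by edgeR), with an interval from -0.19 to 0.06, and the difference was -0.08 in each library set. It had the fewest reads of the subunits, 726 to 1885 per library.

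**Figure D3:**
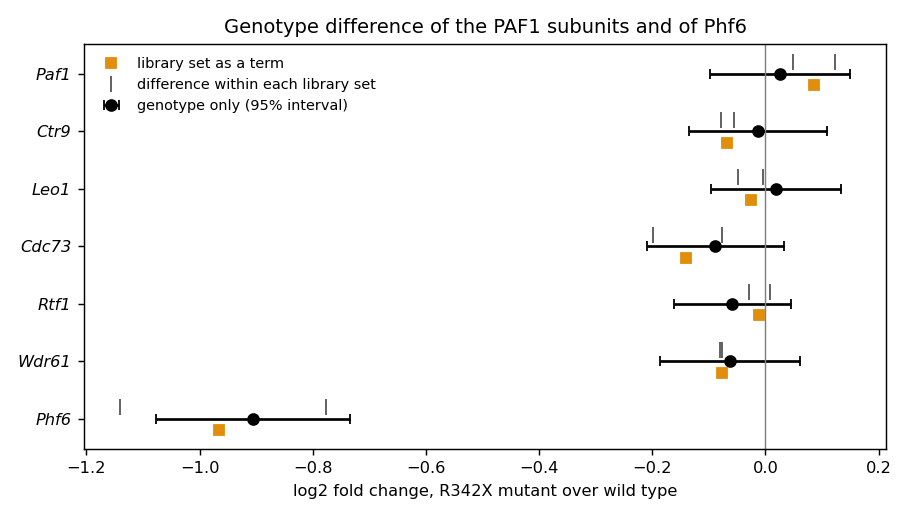
Log2 fold change, R342X mutant over wild type, of each subunit and of Phf6, with 95% intervals from edgeR on genotype (black), the estimate with library set as a term (orange) and the difference of mean log2 CPM within each library set (ticks). The intervals of all 6 subunits include 0 and lie within -0.21 to 0.15, while Phf6 is at -0.90.

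The subunits varied little between libraries of 1 genotype. The residual SD of log2 CPM was between 0.0575 for Leo1 and 0.0778 for Ctr9. Among genes of like level, 13.3% had a smaller SD than Wdr61 and 17.9% a smaller SD than Leo1, while 44.0% had a smaller one than Paf1 and 49.6% a smaller one than Ctr9. The 6 genes did not move as a block. Over the 8 libraries the Pearson correlation of a subunit with the mean profile of all 6 was 0.85 for Wdr61 and 0.63 for Cdc73 but 0.06 for Paf1, although each subunit is part of that mean.

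At the level of transcripts, 23 of the 39 passed the filter on low counts. None of the 23 was called, against 0.0144% of the 55749 transcripts tested, and none had an unadjusted p under 0.05, against 7.37% of all tested. The smallest p belonged to the Paf1 retained-intron transcript ENSMUST00000152512.1, with 1.99, 1.62, 1.63 and 1.58 TPM in the R342X libraries 1 to 4, and 0.873, 1.51, 0.927 and 1.19 TPM in the wild-type ones. Each mutant value was above each wild-type value, in 1 of the 23 transcripts, where 4.37% of all transcripts tested did not overlap. It rested on 8.53 to 20.5 estimated reads per library, and its log2 fold change of 0.56 ± 0.28 was not called (adjusted p = 0.690 by edgeR). With the library set as a term none of the 23 was called either, where 0.00179% of all transcripts were. In that fit 2 of the 23 had an unadjusted p under 0.05, against 6.44% of all tested, namely Paf1 ENSMUST00000146913.1 and the main Cdc73 transcript ENSMUST00000018337.8, whose log2 fold change was -0.16 (adjusted p = 0.675), against -0.06 ± 0.08 without that term.

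The main coding transcripts of 4 subunits separated by library set and overlapped between the genotypes. Leo1 ENSMUST00000048937.5 had 37.5, 37.4, 38.03 and 31.5 TPM in the R342X libraries 1 to 4, and 37.6, 31.0, 31.8 and 31.9 TPM in the wild-type ones. Mutant replicate 4 thus lay with wild-type replicates 2 to 4, and wild-type replicate 1 with the other mutants. The gene's CPM did not split in this way. Over the genes of at least 1 TPM in every library, set 2 minus set 1 had a median of -0.09 on log2 TPM and -0.01 on log2 CPM, while for Leo1 the values were -0.21 on log2 TPM and -0.08 on log2 CPM. The effective length of this transcript overlapped between the sets. Ctr9 ENSMUST00000005749.5, Cdc73 ENSMUST00000018337.8 and Wdr61 ENSMUST00000121204.7 were likewise lower in set 2. In all, 9 of the 23 transcripts did not overlap between the sets, where 23.6% of all transcripts tested did not.

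Most of the Wdr61 level lay in a pair of coding transcripts, ENSMUST00000121204.7 with 45.0% of the gene's TPM and ENSMUST00000051822.12 with 31.7%. In set 1 the first had 23.3 to 26.3 TPM and the second 12.9 to 15.4 TPM. In set 2 their ranges overlapped, at 16.7 to 20.8 TPM for the first and 12.8 to 19.4 TPM for the second. ENSMUST00000121204.7 averaged 22.3 ± 3.80 TPM in mutant cortex and 21.2 ± 3.55 TPM in wild-type cortex, and ENSMUST00000051822.12 averaged 15.4 ± 2.86 TPM in mutant cortex and 15.3 ± 2.43 TPM in wild-type cortex. Both have 918 coding bases. The second shares 1182 bases with the first and has 5 outside it. Neither was called between the genotypes (adjusted p = 0.961 by edgeR for the first and 0.979 for the second).

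**Figure D4:**
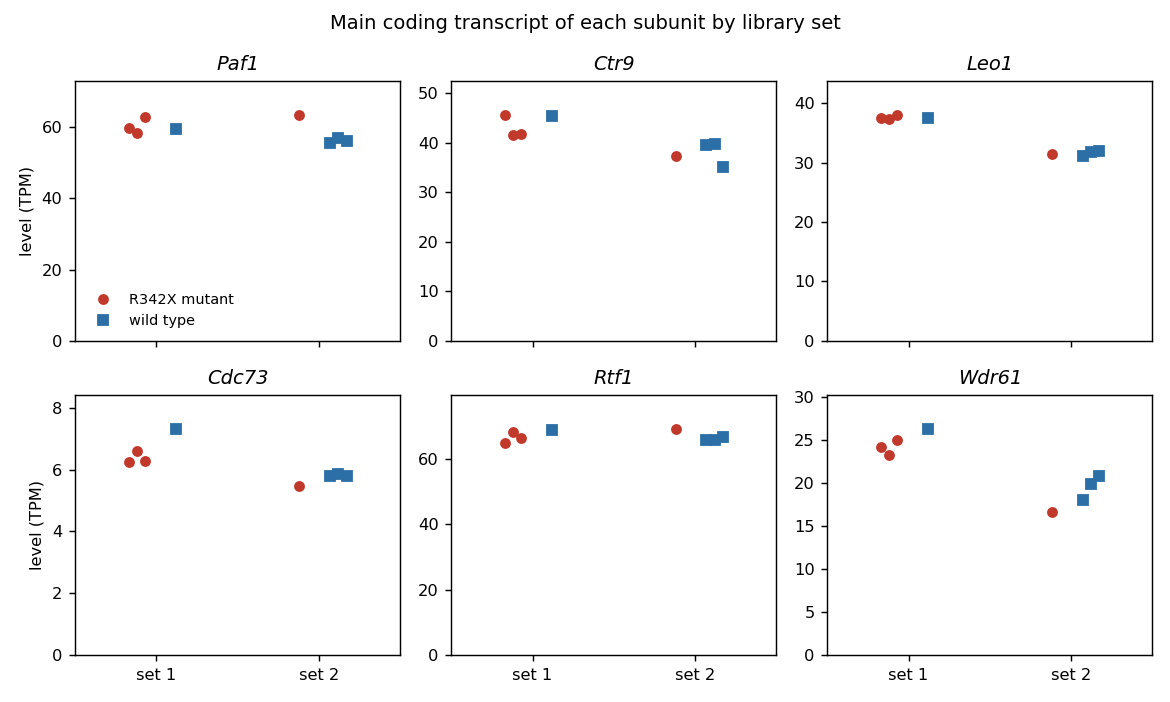
Level in TPM (linear axes from 0) of the most abundant coding transcript of each subunit, by library set, with R342X mutant libraries as red circles left of wild-type libraries as blue squares. Leo1 lies between 37.4 and 38.03 TPM in set 1 and between 31.0 and 31.9 TPM in set 2, with both genotypes in each range.

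Reads of other genes can reach 2 of the subunits if strand was not used, which is not given in the sources used here. B3galt2, a galactosyltransferase gene, lies within Cdc73 on the opposite strand and had 6.59 ± 1.17 TPM in mutant cortex and 6.48 ± 1.24 TPM in wild-type cortex, with an estimated log2 fold change of -0.05 ± 0.13 (adjusted p = 0.881 by edgeR). The Cdc73 transcripts ENSMUST00000162638.1 and ENSMUST00000212510.1 lie on either side of B3galt2. The exon of ENSMUST00000189597.1 reaches into B3galt2, and this transcript held 0.25% of Cdc73 reads. The pseudogene Gm6397, also within Cdc73 on the opposite strand, had 0.135 TPM in mutant cortex and 0.0717 TPM in wild-type cortex and was not tested. Dnaja4, a heat shock cochaperone gene, overlaps Wdr61 by 1581 bases on the opposite strand and had 10.2 ± 0.54 TPM in mutant cortex and 9.40 ± 0.62 TPM in wild-type cortex, with an estimated log2 fold change of 0.02 ± 0.08 (adjusted p = 0.909 by edgeR). Of the Wdr61 transcripts only ENSMUST00000118771.7 reaches into Dnaja4, and it held 0.24% of Wdr61 reads. The part of such reads in the subunit values was not tested.

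The genes for proteins that work with the complex during transcription were counted in the same fit. Of 26 elongation factor genes tested, 8 had an estimate above 0 and 18 below, none was called, and the median log2 fold change was -0.05, against 0.001 over all genes. The sign of this median was not fixed, at 0.007 by limma on log2(TPM + 0.5). Without adjustment, 3 of the 26 had a p under 0.05, a share below the 13.7% of all genes tested. Mllt3, a reader of acylated histones in the super elongation complex, had 106, 102, 107 and 116 CPM in the R342X libraries 1 to 4, and 126, 137, 128 and 134.7 CPM in the wild-type ones. Its groups did not overlap in CPM, as in 6.15% of all genes tested. Its log2 fold change was -0.28 ± 0.05 (adjusted p = 0.141 by edgeR). It passed the threshold in 3 of 17 alternatives, and its adjusted p ran from 0.000382 to 0.501 over all 17. Those 3 were DESeq2 (adjusted p = 0.000382), edgeR with library set added (0.0305) and edgeR without mutant replicate 4 (0.0198). Over all genes tested, DESeq2 called 2.02% and edgeR with library set added called 0.602%. Without mutant replicate 4, 699 genes were called, against 4 with all libraries. Ccnt1, the cyclin partner of CDK9, had the smallest p among the higher estimates, with 0.11 ± 0.07 (adjusted p = 0.512 by edgeR), and the sign turned with an offset for transcript length, with limma on TPM and with the library set as a term. Ssrp1, a subunit of the histone chaperone FACT, had the highest level of the list, at 175 ± 8.85 TPM in mutant cortex and 178 ± 4.71 TPM in wild-type cortex, and a log2 fold change of -0.08 ± 0.05 (adjusted p = 0.512 by edgeR).

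Of 12 co-transcriptional histone modifiers tested, 3 had an estimate above 0 and 9 below, and none was called. The median log2 fold change was -0.03, turning to 0.02 by limma on log2(TPM + 0.5) and lying at -0.0006 without wild-type replicate 1. An unadjusted edgeR p under 0.05 was found for 2 of the 12, against 13.7% of all genes tested. Chd1, a remodeller that follows elongating polymerase, had 45.2 ± 3.71 CPM in mutant cortex and 51.4 ± 1.74 CPM in wild-type cortex. Its estimated log2 fold change was -0.19 ± 0.06 (adjusted p = 0.271 by edgeR). Without mutant replicate 4 its edgeR adjusted p was 0.0421, in a fit that called 699 genes, against 4 with all libraries. Ube2a, an enzyme that ubiquitylates histone H2B, had 0.06 ± 0.07 (adjusted p = 0.692 by edgeR), with the opposite sign under the length offset and with the library set as a term. Usp22, which removes ubiquitin from H2B, had the highest level of the list, at 315 ± 10.6 TPM in mutant cortex and 320.2 ± 23.9 TPM in wild-type cortex. Its log2 fold change was -0.06 ± 0.04 (adjusted p = 0.475 by edgeR).

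Both SKI partners of Wdr61 had estimates below 0. Ttc37, the SKI scaffold, had 31.3 ± 0.87 CPM in mutant cortex and 35.3 ± 1.98 CPM in wild-type cortex without overlap, with an estimated log2 fold change of -0.17 ± 0.06 (adjusted p = 0.259 by edgeR). For Skiv2l, the SKI helicase, the value was -0.01 ± 0.04 (adjusted p = 0.935 by edgeR), and its sign turned with the library set as a term. Cspg5, a neuronal proteoglycan gene known as a target of PHF6 and PAF1 in cortex, had 314, 327, 311 and 306 CPM in the R342X libraries 1 to 4, and 281, 292, 304 and 292 CPM in the wild-type ones. Each mutant library was above each wild-type library, and the log2 fold change was 0.10 ± 0.04 (adjusted p = 0.319 by edgeR), so the difference was not called. Groups without overlap in CPM, as in Ttc37 and Cspg5, were found in 6.15% of all genes tested.

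**Figure D5:**
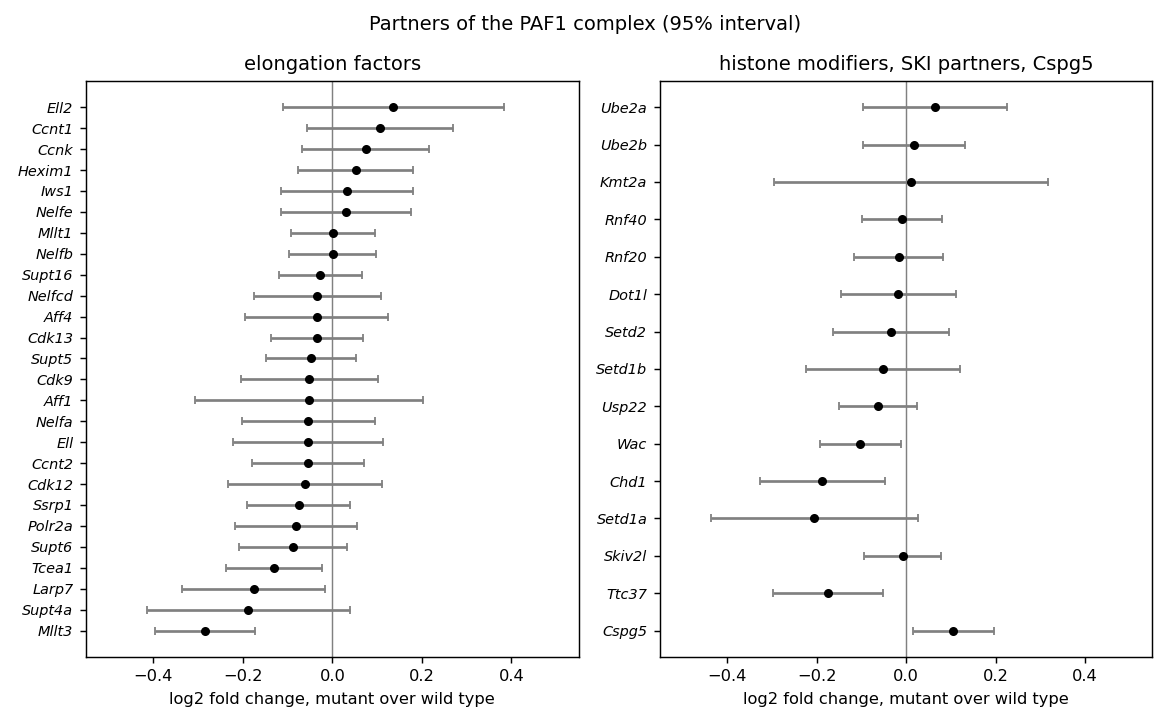
Log2 fold change, R342X mutant over wild type, with 95% intervals from edgeR, of 26 elongation factors (left) and of 12 histone modifiers, the SKI partners Skiv2l and Ttc37, and Cspg5 (right). None of these genes was called, and Mllt3 is lowest at -0.28.

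The genes whose CPM followed the mean profile of the 6 subunits most closely over the 8 libraries were Gtf3c6 (Pearson r = 0.94), Stag1 (0.93), Calcoco1 (0.93), Ccdc97 (0.93) and Guf1 (0.92), among 9837 candidates of which 95% had an r below 0.576. The mean profile moved only between -0.04 and 0.04 on the log2 scale, the libraries share genotype and library set, and the values are a description with no test. None of these 5 genes was called.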

How the data were processed

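Messenger RNA of 8 cortex libraries was quantified by the authors. For each transcript the deposited files hold an estimated count (expected count), a TPM value and an effective length, per the file headers. The authors' deposited table holds, per gene, a mean normalized count (signal), a log2 fold change and its standard error, and p-values before and after adjustment. Salmon 0.12.0, DESeq2 and the GRCm38 build are named per the submitters' processing notes, and strand use, bias options and the model of the authors' table are not given there.

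Transcript counts were added up per gene, then rounded to whole numbers. Genes and transcripts were tested over all features in edgeR 4.0.16 under R 4.3.3 (default filter on low counts, TMM scaling, two-sided quasi-likelihood test on genotype alone, Benjamini-Hochberg), with adjusted p-values under 0.05 counted as calls, and standard errors taken from the fold and its F statistic. Levels between genes were compared in TPM. Coordinates and transcript types come from GENCODE M21, which 52175 of 53392 gene identifiers matched with version. Library sets are the sides of 0 on component 1 of a principal component analysis of log2 CPM (prior count 2). No pair of libraries of the same genotype agreed within sampling noise, and pairs across genotypes were not examined. Alternatives used DESeq2 1.42.0, limma 3.58.1 on voom values or on log2(TPM + 0.5) and log2(TPM + 0.1) with a filter of 1 TPM in 4 libraries, other count filters, a length offset, library set, replicate block and left-out libraries. The fits were tested on simulated data without library sets and without a spread particular to each gene. In these data 50 genes or transcripts, none of low count, were changed at each fold. Changes of 1.2-fold were called in 20% of the genes and 0% of the transcripts that were changed. Changes of 1.5-fold were called in 86% of such genes and 30% of such transcripts. The fit of the real data called only 4 genes, so the shares can be lower there.

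Named were the 6 subunits and Phf6, subunit transcripts averaging at least 1 TPM, the called members, the smallest p in each direction and the highest level of each list, overlapping genes, and the 5 genes most like the subunits' mean, with average log2 CPM of at least 3 and without Gm or Rik names. Sums over protein-coding transcripts and the description by library set were added after the data were seen. Members and lists were chosen with earlier results of these data known.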

Additional observations from a re-analysis of the deposited data

Results flagged for a closer look

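In groups of 4 libraries, 1 library can stand apart from the other 3 by most of the group's range. This held for 7 of the 96 groups examined, where chance alone gives about 5%. Paf1 was at 125 TPM in mutant replicate 4, above 112 to 113 TPM in the other mutants. Leo1 was at 33.7 TPM in mutant replicate 4, below 38.7 to 39.2 TPM in the other mutants. The Leo1 coding transcript ENSMUST00000048937.5 was at 31.5 TPM in mutant replicate 4, below 37.4 to 38.03 TPM in the other mutants, and at 37.6 TPM in wild-type replicate 1, above 31.0 to 31.9 TPM in the other wild-type libraries. The Cdc73 coding transcript ENSMUST00000018337.8 was at 7.32 TPM in wild-type replicate 1, above 5.78 to 5.87 TPM in the other wild-type libraries. Wild-type replicate 1 also had 1.53% of Ctr9 reads in transcripts not annotated as coding, below 3.03% to 3.33% in the others. The Paf1 transcript ENSMUST00000152512.1 was at 1.99 TPM in mutant replicate 1, above 1.58 to 1.63 TPM in the other mutants. In 6 of the 7 cases the library was mutant replicate 4 or wild-type replicate 1, the 1 library of its genotype that lies in the other library set. The cause was not tested.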

How the results depend on the processing

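None of the 6 subunits was called in any of 102 alternatives, with adjusted p-values from 0.183 to 0.999, and none of 22 subunit transcripts in 264. DESeq2 gave no adjusted p for some of these transcripts, among them ENSMUST00000152512.1, so those could not be called there. Causes were not tested. Gene calls numbered 4; they were 406 with DESeq2, 13 without a filter, 121 with the library set as a term, 10 with limma on log2(TPM + 0.5), 15 on log2(TPM + 0.1), 20 with the replicate block, and 3 to 699 with 1 library left out (699 without mutant replicate 4, 14 without wild-type replicate 1). Transcript calls numbered 8; they were 366 with DESeq2, 1 with the library set, 0 with the replicate block and 0 to 12 with 1 library left out. Libraries of the same number deviated with correlations from -0.08 to 0.32, which does not show that the numbers pair samples; the block called no subunit. Phf6 was -0.81 and -0.82 (log2) on TPM, not called there (adjusted p up to 0.0639). The sign of uncalled estimates turned as follows (log2 fold change). With the library set as a term: Leo1 -0.0258, Ccnt1 -0.00786, Ube2a -0.0285, Skiv2l 0.00794, and, in the order of the transcripts ENSMUST00000145339.1, ENSMUST00000005749.5, ENSMUST00000157025.7, ENSMUST00000048937.5, ENSMUST00000212510.1, ENSMUST00000126984.1, ENSMUST00000051822.12, ENSMUST00000121204.7 and ENSMUST00000127451.1, 0.18, -0.0642, 0.14, -0.00907, 0.0274, 0.0750, 0.11, -0.18 and 0.15; of these, ENSMUST00000145339.1 was -0.42, ENSMUST00000126984.1 -0.38 and ENSMUST00000127451.1 -0.21 on genotype alone. With the length offset: Ccnt1 -0.15, Ube2a -0.0341. On log2(TPM + 0.5) and log2(TPM + 0.1): Ctr9 0.0467 and 0.0471, Rtf1 0.0139 and 0.0140, Ccnt1 -0.0932 and -0.0944, Skiv2l 0.0264 and 0.0266, B3galt2 0.0228 and 0.0240. Without a filter: ENSMUST00000005749.5 -0.00597. With 1 library left out: Paf1 -0.0156 to 0.0616, Ctr9 -0.0491 to 0.0174, Skiv2l -0.0140 to 0.00425, B3galt2 -0.128 to 0.0594, Dnaja4 -0.0285 to 0.0703, ENSMUST00000005749.5 -0.0328 to 0.0551, ENSMUST00000051822.12 -0.166 to 0.0979, ENSMUST00000121204.7 -0.0390 to 0.143, ENSMUST00000127451.1 -0.497 to 0.0157, ENSMUST00000146913.1 -0.0452 to 0.131, ENSMUST00000157025.7 -0.431 to 0.00832, ENSMUST00000212510.1 -0.192 to 0.0453. Medians turned to 0.00659 and 0.00695 for elongation factors and to 0.0199 and 0.0201 for histone modifiers on log2(TPM + 0.5) and log2(TPM + 0.1). Depth per subunit ran from 726 to 12861 estimated reads per library.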
